A study of Mus musculus with 2 samples.

Results

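Beta-catenin (Ctnnb1), the destruction complex genes Gsk3a, Gsk3b, Apc, Axin1 and Csnk1a1, and the TCF/LEF factors Tcf7, Lef1, Tcf3 and Tcf7l2 were examined in mouse embryonic stem cells (mESCs) given CHIR99021 (CHIR), an inhibitor of GSK3. These 10 genes were chosen by name from the pathway and were found by symbol among the 30774 gene identifiers on the array. The cells, labelled B6 mESCs with the inner cell mass as their source, were grown in medium that contained serum and LIF, a cytokine that signals through Stat3. One array measured these cells without CHIR (LIF), and the other measured cells that also received CHIR (LIF plus CHIR). The treatment time was 12 h for both arrays. Both conditions therefore shared LIF, serum and strain, and CHIR was the only labelled difference. There was 1 Illumina beadchip array per condition. The dose of CHIR used for the arrays is not given in the sources used here, and the study names 46C mESCs, not B6 mESCs, in its culture methods.

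Without a Wnt signal, Axin and Apc hold β-catenin so that casein kinase 1α and GSK3 can phosphorylate it, which marks it for ubiquitylation and proteasomal degradation. Inhibiting GSK3 lets β-catenin protein accumulate, enter the nucleus and bind TCF/LEF factors on DNA. In mESCs Tcf3, the older name of Tcf7l1, is known mainly as a repressor of pluripotency genes, whereas Tcf7 and Lef1 mostly act as activators with β-catenin. The array measured RNA, and so did not read the stability or phosphorylation of any of these proteins.

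Of the 10 genes, 4 were detected on both arrays (Ctnnb1, Gsk3b, Axin1 and Tcf3), Tcf7 was detected with CHIR only, and 5 (Gsk3a, Apc, Csnk1a1, Lef1 and Tcf7l2) were detected on neither. The 4 genes detected on both arrays had ratios of LIF plus CHIR over LIF between 0.87 and 1.02. Tcf7, an activating TCF factor, was the only member past the 1.5-fold limit taken from the study. Its ratio was 1.67, with a LIF signal that was not detected. Detection means a detection p-value under 0.01, which sets a signal against the negative control beads of the same array and does not compare the arrays. Ratios were taken from the deposited signals of entries detected on at least 1 array, with dimmer signals raised to the lowest signal that counted as detected (15.1 in LIF, 14.8 in LIF plus CHIR). With 1 array per condition the spread between cultures was not measured, and no difference has a replicate check or a p-value. A difference between the cultures and an effect of CHIR cannot be told apart, nor can fewer cells with a transcript and less transcript per cell.

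The count of 1 member at least 1.5-fold higher among the 5 with a ratio stood beside 4.11% of all 9615 tested identifiers, and 0 lower members stood beside 4.02%. Both directions together made up 8.13% of the tested identifiers. The median log2 ratio of the 5 members was 0.01, and that of all tested identifiers was 0.00. A single gene out of 5 is too few to be read against these shares.

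**Figure D1:**
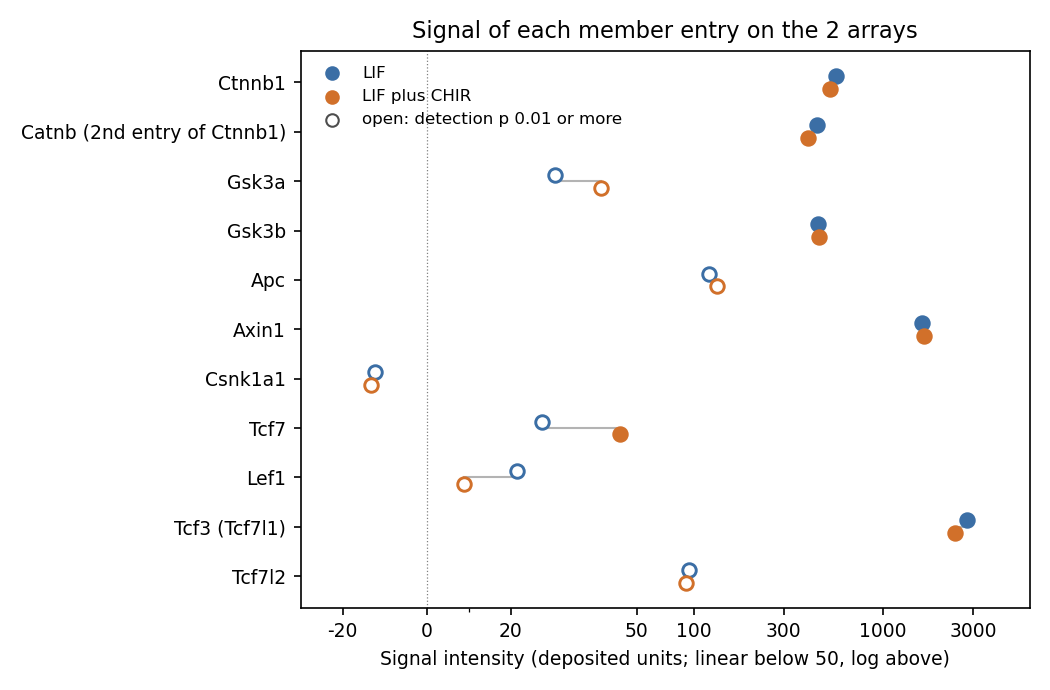
Signal intensity of each member entry (rows) on the LIF array (blue) and the LIF plus CHIR array (orange), on an axis that is linear below 50 and logarithmic above. Filled points had a detection p-value under 0.01, open points did not, and the points of a row overlap or nearly overlap for Ctnnb1, Gsk3b and Axin1 but are apart for Tcf7, where only the CHIR signal of 46.0 was detected. Signals of different rows come from different probes and are not comparable.

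The label mESC was checked against marker genes. Of 8 mESC markers, 6 were detected on both arrays, among them Dppa5a, listed as Dppa5, at 57706 in LIF and 55731 in LIF plus CHIR. Sox2 and Tdgf1 did not reach the detection limit. None of 6 fibroblast markers was detected on either array, and their summed signals were 218.1 in LIF and 206.8 in LIF plus CHIR, with Thy1 at 222.3 and 225.3 (detection p-values 0.35 and 0.30) and Col1a1 and Col3a1 below 0. Of 12 markers of other lineages, Sox7 from primitive endoderm was detected on both arrays at 45.9 and 59.0, while the summed signal of the 5 primitive endoderm markers was 120.5 in LIF and 106.0 with CHIR. Nes (27.7 and 44.8) and Cdx2 (23.6 and 93.5) were detected with CHIR only. The summed neural signal was 14.8 in LIF and 59.1 with CHIR and the trophoblast sum was 4.26 and 99.4. Nes and Cdx2 were the only detected genes of these lists, and negative signals of the others lowered the sums. Of the genes detected on neither array, Sox1 (-7.23 and 28.9) and Eomes (-3.90 and 27.2) were higher with CHIR. Pax6 (-5.58 and -14.6), Hand1 (-11.9 and -15.2) and Elf5 (-3.58 and -6.07) were lower. The part of these lineage markers in the results was not tested. Axin2, a feedback scaffold of the destruction complex that is transcribed in response to β-catenin, had a signal of 1178 on the array labelled LIF plus CHIR and 314.1 on the array labelled LIF, a 3.75-fold difference in the direction that GSK3 inhibition is known to give.

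Ctnnb1 encodes β-catenin, which links cadherins to the cytoskeleton and is the transcriptional effector of the pathway. Its entry (Entrez gene 12387, chromosome 9, band 9qF4) had a signal of 563.7 in LIF and 528.7 in LIF plus CHIR, with detection p-values of 3.57e-05 and 0.00095. The ratio was 0.94, a log2 ratio of -0.09. A second entry carries the older symbol Catnb, which RefSeq lists as a synonym of Ctnnb1, although the array gives it no Entrez number. Catnb had 450.6 in LIF and 402.5 in LIF plus CHIR, a log2 ratio of -0.16. Both entries of the gene thus had a slightly lower signal with CHIR, neither near the 1.5-fold limit. Of the 2339 tested identifiers whose brighter signal lay between 300 and 1000, the middle 90% had log2 ratios from -0.42 to 0.44, and 65.3% had an absolute log2 ratio at least as large as that of Ctnnb1.

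GSK3 is encoded by Gsk3a and Gsk3b, paralogous kinases that act redundantly on β-catenin and are both inhibited by CHIR. Gsk3b (Entrez gene 56637, band 16qB3) had 457.0 in LIF and 461.2 in LIF plus CHIR, a ratio of 1.01. In the same signal range 95.2% of identifiers had an absolute log2 ratio at least as large. Gsk3a (Entrez gene 606496, band 7qA3) had 30.5 in LIF and 41.4 in LIF plus CHIR. Its detection p-values of 0.054 and 0.020 missed the limit on both arrays, and no ratio was taken. LOC621984, annotated as a predicted transcript similar to Gsk3a, was below background on both arrays, at -14.0 and -12.8.

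Axin1 is the scaffold on which the destruction complex assembles, and is held to be its limiting component. It was detected on both arrays with a detection p-value of 0, at 1617 in LIF and 1652 in LIF plus CHIR (Entrez gene 12005, band 17qA3.3). Its ratio of 1.02 compared with 3.75 for its inducible relative Axin2. Of 1719 identifiers with a brighter signal between 1000 and 3000, 85.3% had an absolute log2 ratio at least as large as the 0.031 of Axin1, whereas the middle 90% ran from -0.34 to 0.33 and left Axin2, at 1.91, outside. The scaffolds of the same complex therefore had unequal ratios on the same pair of arrays.

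Apc, the tumour suppressor that binds both Axin and β-catenin, had 120.0 in LIF and 132.4 in LIF plus CHIR. Its combined detection p-values, 0.035 and 0.099, missed the limit. The p-values of this entry are not multiples of 1 over 936, the inferred number of negative controls, so it was taken as measured by several probes whose signals were averaged. Such an average can be well above background while the combined p-value is not low, and how the probes differ cannot be seen in these tables. Csnk1a1, the casein kinase 1α gene that provides the priming phosphorylation for GSK3 (Entrez gene 93687, band 18qE1), was measured by 1 probe and was below background in both conditions, at -12.2 in LIF and -13.3 in LIF plus CHIR, with detection p-values of 0.82 and 0.87. This gives no level for the gene beyond this probe. Other casein kinase 1 genes, named here after their values were seen, were detected on both arrays, with Csnk1d at 1704 in LIF and 1834 with CHIR and Csnk1e at 1608 and 1794.

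The TCF/LEF symbols needed checking, because Tcf3 and Tcf4 have each been used for unrelated genes. The Tcf3 entry has Entrez gene 21415, the synonym Tcf7l1 and band 6qC1, and RefSeq names this gene Tcf7l1. The helix-loop-helix gene E2A, which is also called Tcf3, has an entry of its own as Tcfe2a (143.6 in LIF and 163.1 in LIF plus CHIR). Tcf7l2 is often called Tcf4, but the Tcf4 entry has Entrez gene 21413, a different helix-loop-helix gene, and was not used. That entry had signals of 739.9 and 902.6 with detection p-values of 0.20 and 0.12. The Tcf7l2 entry has no Entrez number and was taken by its symbol. Over all members, 8 of 10 had an Entrez number, and all 8 numbers named the intended gene in RefSeq.

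Tcf3 had 2798 in LIF and 2424 in LIF plus CHIR, both with a detection p-value of 0. The ratio was 0.87, a signal lower by 13.4% with CHIR and the lowest ratio among the members (log2 ratio -0.21). It lay inside the middle 90% of identifiers of similar brightness (-0.34 to 0.33), of which 22.5% had an absolute log2 ratio at least as large. Tcf3 also kept its sign under the 9 processing alternatives that gave a ratio, with log2 ratios from -0.28 to -0.20. Only quantile normalization, scaling and the normexp fits could move its value, because the others leave a ratio of 2 detected signals as it is. All of them reuse the same pair of arrays, so the kept sign is no replicate check.

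Tcf7 (Entrez gene 21414, band 11qB1.3), also known as Tcf1, had 27.5 in LIF and 46.0 in LIF plus CHIR. It was detected with CHIR (combined detection p-value 0.0015) but not in LIF (0.024). Like Apc, this entry was taken as measured by several probes whose signals were averaged, and how the probes differ cannot be seen. The plain ratio of the 2 signals was 1.67 (log2 ratio 0.74). Because the LIF signal was not told apart from background, the true ratio could be lower or higher. Both signals were dim. Of the 1825 tested identifiers with a brighter signal under 100, 20.7% passed 1.5-fold in either direction and 10.4% were higher, and the middle 90% ran from -0.82 to 0.87, a range that includes Tcf7. The call was lost under 5 of 10 alternatives. The log2 ratio was 0.47 or 0.016 after normexp background correction, fitted on identifiers with 1 probe or on all identifiers. Tcf7 had no ratio with detection required on both arrays or with a minimum taken from identifiers with 1 probe (51.9 in LIF, 47.1 in LIF plus CHIR), and it did not reach a 2-fold limit.

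Lef1 and Tcf7l2 complete the family. Lef1, which is a transcriptional target of the pathway in many tissues (Entrez gene 16842, band 3qG3), had 21.4 in LIF and 8.84 in LIF plus CHIR, with combined detection p-values of 0.34 and 0.21. Tcf7l2 had 94.9 and 91.6, with combined detection p-values of 0.59 and 0.35. No ratio was taken for either, and none could be taken under any alternative. A change of Lef1 RNA was not detectable in these arrays, which does not show that it did not occur. Of the 4 TCF/LEF genes, 1 was thus detected on both arrays, 1 with CHIR only and 2 on neither.

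**Figure D2:**
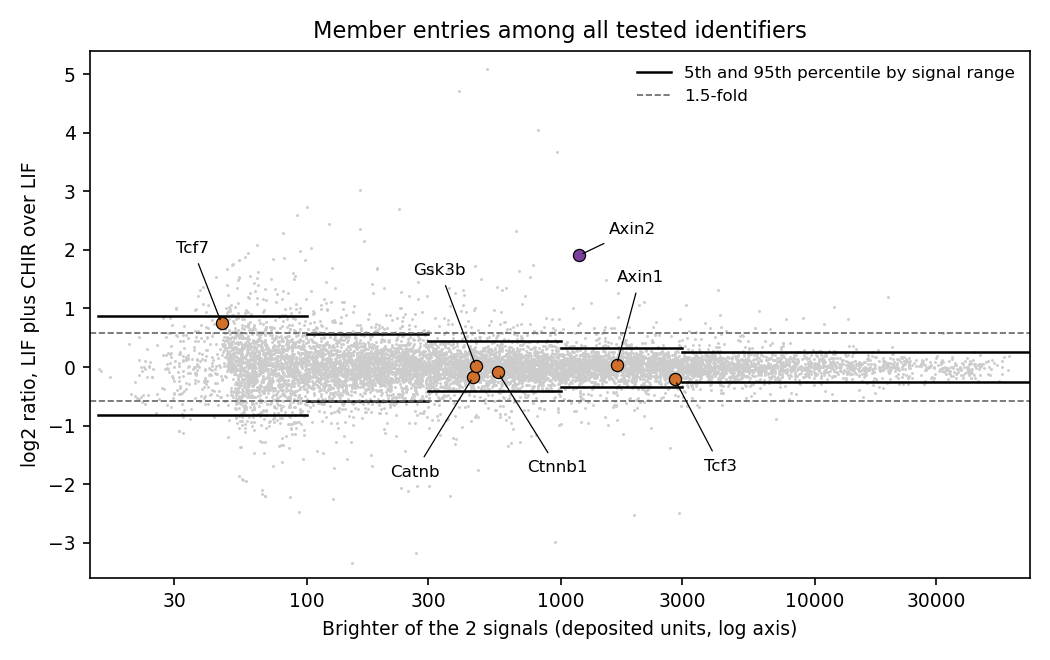
The log2 ratio of LIF plus CHIR over LIF against the brighter of the 2 signals (log axis) for 9615 tested identifiers (grey), with member entries in orange and Axin2 in purple. Black lines give the 5th and 95th percentile of log2 ratios in each of 5 signal ranges and dashed lines mark 1.5-fold; all 6 member entries lie between the black lines of their range and Axin2, at 1.91, lies above.

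RefSeq promoter windows of assembly GRCm38.p6, reaching from 250 bases before a transcription start to 50 bases after it, were found for 7 of the 10 genes, in 13 windows. Apc, Axin1 and Csnk1a1 had none. The windows were searched on both strands for the letters CTTTG followed by 2 bases that are each an A or a T, which are the 7-base forms of the TCF/LEF recognition sequence. Matches were found in 3 of the 13 windows (23.1%), in Gsk3a, Lef1 and Tcf7l2, and in 16.9% of all 32851 windows. A match is only a run of letters. The 250 bases before a start are given below for 3 members. These are Tcf7 (1 of its starts), the member past 1.5-fold, and Tcf7l1 (the Tcf3 entry), the member with the lowest ratio. The last is Gsk3a, whose window holds a match, shown in capitals. All 3 are on the minus strand and are written 5′ to 3′ along the gene, at chr11:52283015-52283264, chr6:72789046-72789295 and chr7:25237852-25238101.
Tcf7: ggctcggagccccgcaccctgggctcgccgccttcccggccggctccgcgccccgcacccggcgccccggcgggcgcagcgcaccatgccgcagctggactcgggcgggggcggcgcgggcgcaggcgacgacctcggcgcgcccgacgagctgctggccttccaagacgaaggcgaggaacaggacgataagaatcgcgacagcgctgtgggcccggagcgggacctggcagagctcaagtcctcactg
Tcf7l1: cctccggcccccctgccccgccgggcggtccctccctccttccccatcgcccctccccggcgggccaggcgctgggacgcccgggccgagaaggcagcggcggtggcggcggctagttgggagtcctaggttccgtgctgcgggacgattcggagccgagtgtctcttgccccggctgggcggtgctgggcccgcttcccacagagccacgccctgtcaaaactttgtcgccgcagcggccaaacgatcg
Gsk3a: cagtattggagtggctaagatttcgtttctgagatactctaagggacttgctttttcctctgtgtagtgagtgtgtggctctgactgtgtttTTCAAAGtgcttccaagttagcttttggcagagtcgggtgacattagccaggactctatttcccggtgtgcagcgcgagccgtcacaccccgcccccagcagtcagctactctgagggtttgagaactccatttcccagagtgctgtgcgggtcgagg
The Gsk3a match reads TTCAAAG along the gene (CTTTG and 2 A on the other strand), and its first base is 158 bases before the start. The upstream sequences of Tcf7 and Tcf7l1 shown hold none of the searched letters, and neither does the other Tcf7 window. In the Tcf7 stretch an ATG is followed by no stop codon in its frame, so part of it may be coding sequence. The missing letters therefore do not describe the sequence further upstream of Tcf7. Tcf7l2 has a match (CTTTGTT) 14 bases before one of its starts and Lef1 has one (TACAAAG) 147 bases before one of its starts, neither of which could be set against a measured ratio.

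The members were then set beside 52 other genes of the pathway, grouped by role. Of these, 50 were matched to the array and 35 were tested, 34 of them detected on both arrays. Axin2 was the only one of the 35 at least 1.5-fold higher (2.86%, against 4.11% of all tested identifiers). None was at least 1.5-fold lower, against 4.02% of all tested identifiers. Counts this small are near those shares. The median log2 ratio was -0.01. The ratios of the members detected on both arrays thus lay among those of their partners in the pathway.

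Among scaffolds and kinases, 8 of 10 genes were tested, with a median log2 ratio of 0.09. The catalytic subunit of protein phosphatase 2A, Ppp2ca, had 20705 in LIF and 21876 in LIF plus CHIR. Its scaffold subunit Ppp2r1a had 6446 and 7472. Of 9 genes for the ubiquitin ligase that destroys β-catenin and for Axin turnover, 7 were tested, with log2 ratios from -0.21 to 0.016. The tankyrase Tnks2, which marks Axin for degradation, had 5032 and 5054, and the cullin partner Rbx1 had 4766 and 4746. No tested gene of this group passed 1.5-fold, against 8.13% of all tested identifiers. The lowest ratio was that of Btrc, named after its values were seen, with 140.7 in LIF and 121.8 with CHIR and detection in LIF only. Of 7 Dishevelled and GSK3-binding genes, 4 were tested. Frat2, a GSK3-binding protein, had 529.1 and 532.1, and Dvl1, which relays the receptor signal, had 252.8 and 251.3. Dact1, a Dishevelled antagonist named after its values were seen, had 98.0 in LIF and 69.2 in LIF plus CHIR, a log2 ratio of -0.50 that did not pass the limit.

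Nuclear co-activators were tested for 6 of 9 genes. The helicase Ruvbl1 had 7416 in LIF and 7145 with CHIR, and Pygo2, which reads histone methylation within the β-catenin complex, had 4414 and 4120. Its relative Pygo1, named after its values were seen, had 77.9 and 114.9, a ratio of 1.48 just under the limit. Co-repressors and inhibitors were tested for 8 of 13 genes, with a median log2 ratio of -0.17. Of the 8, 5 were lower with CHIR, none of them by 1.5-fold, beside 4788 of all 9615 tested identifiers. The Groucho co-repressor Tle4, which TCF factors recruit, had 2842 in LIF and 2462 with CHIR, and the chromatin remodeller Chd8, which binds β-catenin, had 2222 and 1969. Their log2 ratios, -0.21 for Tle4 and -0.17 for Chd8, lay inside the middle 90% of identifiers of similar brightness (-0.34 to 0.33). Of the adhesion partners, α-catenin (Ctnna1) had 22623 and 22192 and E-cadherin (Cdh1) had 467.4 and 419.5, whereas Jup, the closest relative of β-catenin, was detected on neither array.

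**Figure D3:**
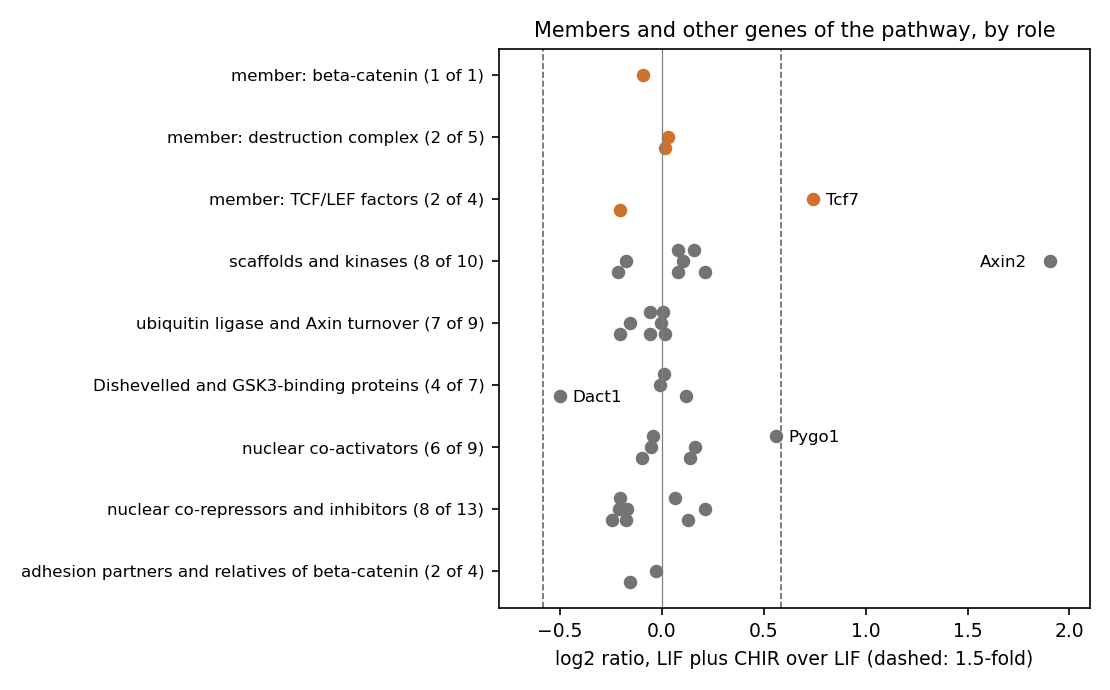
Log2 ratio of LIF plus CHIR over LIF (horizontal axis; dashed lines, 1.5-fold) for the members (orange) and 52 other pathway genes (grey) by role, with the number tested of the number listed in brackets; vertical offsets within a row only separate points. Only Tcf7 (0.74) and Axin2 (1.91) lie past 1.5-fold, and Pygo1 and Dact1 are labelled as the next farthest from 0.

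The members detected on both arrays were also compared across processing settings. Over 10 settings the log2 ratio of Ctnnb1 lay between -0.10 and -0.04, of Catnb between -0.17 and -0.05, of Gsk3b between 0.001 and 0.016, and of Axin1 between 0.023 and 0.033. Each of them kept its sign in all settings. The other detection limits, the other minimum signals and the shorter table could not alter these ratios, and every setting used the same 2 arrays. At a detection limit of 0.05, Gsk3a and Apc also had ratios, with log2 values of 0.44 and 0.14.

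**Figure D4:**
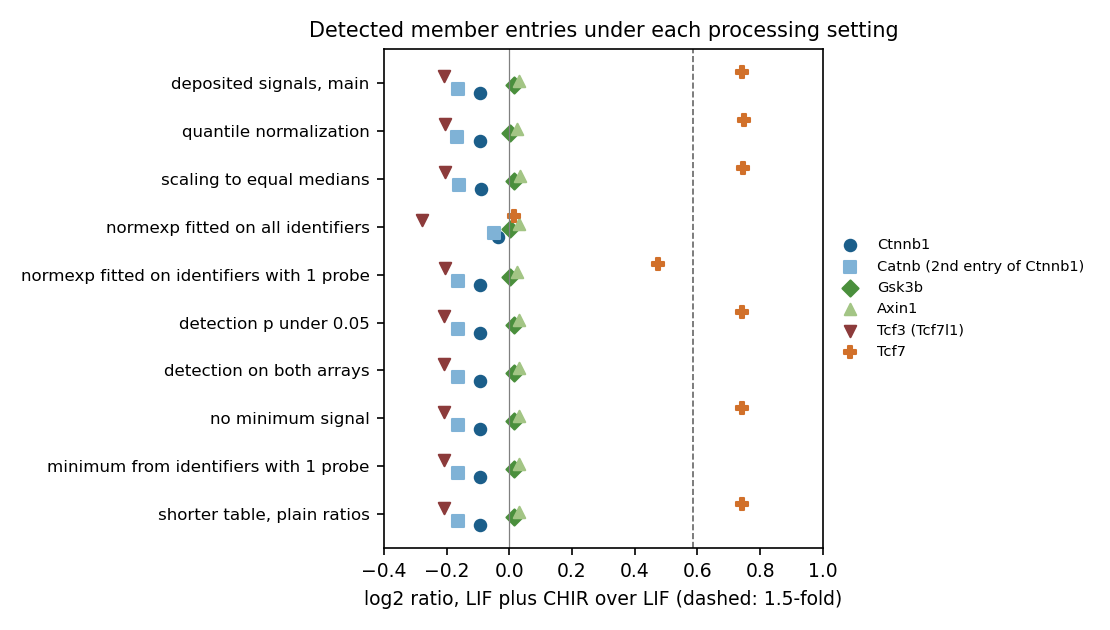
Log2 ratio of LIF plus CHIR over LIF (horizontal axis; dashed line, 1.5-fold) of the detected member entries under each of 10 processing settings (rows). Ctnnb1, Catnb, Gsk3b, Axin1 and Tcf3 stay within 0.3 of 0 in every row, whereas Tcf7 moves from 0.74 to 0.016 and has no value in 2 rows.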

How the data were processed

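The 2 arrays were assigned to LIF and LIF plus CHIR by the sample titles. For 30774 gene identifiers the authors deposited signal intensity, a linear value from which background had been subtracted before deposit, since 11742 values in LIF and 11741 with CHIR were negative. Its distributions were nearly equal on both arrays (medians 10.5 and 10.4). The software and normalization are not given in the sources used here. A detection p-value was deposited beside every signal. The table described as normalized holds 11702 of the identifiers, and 0 of its signals differed from the longer table. The number of unused sample columns was 0.

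Log2 ratios, with the detection limit and minimum given in the results, were calculated in Python 3.11.15 (pandas 2.3.3, numpy 2.4.6, figures in matplotlib 3.10.9), in scripts tested on simulated data. Entries whose detection p-values were multiples of 1 over 936 (tolerance 0.001 of a control) were taken as measured by 1 probe. Where both p-values were 0, the number of probes could not be told. Genes were matched by symbol, then by Entrez number or synonym in RefSeq. The alternatives were quantile normalization, scaling to equal medians, normexp correction with an offset of 16 (limma 3.58.1, R 4.3.3) from either all identifiers or those with 1 probe, other detection limits and minimum signals, the shorter table and a 2-fold limit.

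All members were named. Of the pathway lists, genes past 1.5-fold and the 2 brightest tested genes of each role were named, and of each marker list the brightest. Sox2, Tdgf1, Col1a1, Col3a1, Sox1, Eomes, Jup, LOC621984 and the annotated β-catenin binding genes were named after their values were seen, as were those marked so in the text. The same holds for Pax6, Hand1 and Elf5. The members and lists were chosen with earlier results of these data known. No test between arrays and no set test was made. Signals of different genes were used together only to choose the genes named, to sum signals and to group identifiers by brightness. The number of arrays limits the precision.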

Additional observations from a re-analysis of the deposited data

How the results depend on the processing

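No paired analysis was possible because only 1 array stands on each side of the comparison. The number of members at least 1.5-fold higher or lower was 1 (Tcf7) and became 0 under normexp correction fitted on all identifiers, normexp fitted on identifiers with 1 probe, detection on both arrays, the minimum from identifiers with 1 probe and the 2-fold limit. It was 1 under the other 5 alternatives. The number of pathway genes past the limit was 1 (Axin2) and became 2 at a detection p under 0.05, and likewise 2 in the shorter table with plain ratios. There Jup (1.48 in LIF, 34.1 in LIF plus CHIR) joined it. Axin2 fell from 1.91 to a log2 ratio of 0.94 under normexp fitted on all identifiers, which put the background SD with CHIR at 585.8, where the fit to identifiers with 1 probe put it at 15.7. The share of all tested identifiers past 1.5-fold ran from 1.08% under normexp fitted on all identifiers to 11.7% at a detection p under 0.05. The number of members detected was 5, with 7 at a detection p under 0.05 and 4 when detection on both arrays was required. No member's ratio changed sign under the alternatives that gave one, which were 9 for Ctnnb1, Gsk3b, Axin1 and Tcf3 and 7 for Tcf7. Among these, only quantile normalization, scaling and the normexp fits were able to alter a member's ratio. Signals near those of the negative controls limit what can be said of Tcf7, Gsk3a, Csnk1a1 and Lef1. Apc and Tcf7l2, the other members detected on neither array, had brighter averaged signals. Their combined detection p-values were not under 0.01, so no ratio was taken for them at the main setting.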

Other observations

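The array's own annotation assigns 88 identifiers to the Wnt receptor signaling pathway, a grouping that was added after the values were seen. It holds 7 of the 10 members, and 39 of the 88 were tested. Of these, 9 were at least 1.5-fold higher with CHIR (23.1%, against 4.11% of all tested identifiers) and 1 was at least 1.5-fold lower (against 4.02%). Tcf7, Rspo1 and Rspo3 had brighter signals under 100, a range in which 10.4% of tested identifiers were at least 1.5-fold higher. Apart from Tcf7 and Axin2, the genes past the limit act outside the cell or at its surface, or in making ligands. Wnt3a, a ligand of the β-catenin pathway, had 108.7 in LIF and 251.7 in LIF plus CHIR. Wnt8a, another such ligand, had 50.4 and 129.0, and the receptor Fzd10 had 139.0 and 457.5. Porcn, the acyltransferase that Wnt ligands need for secretion, had 975.2 and 2110, a log2 ratio of 1.11. Wnt5b (37.6 and 167.1) and the Wnt-enhancing R-spondins Rspo1 (24.0 and 50.1) and Rspo3 (11.7 and 50.5) were detected with CHIR only. Rspo1 and Rspo3 only just passed the detection limit, with detection p-values of 0.0096 and 0.0085 with CHIR. The LIF signal of Rspo3 was raised to the minimum for its ratio. Wnt7b was the gene at least 1.5-fold lower, with 385.4 in LIF and 164.7 in LIF plus CHIR.

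The annotation names 7 identifiers for β-catenin binding, among them Gsk3b, and 4 were tested. Their log2 ratios ran from -0.05 (Lzic, 701.8 in LIF and 676.9 in LIF plus CHIR) to 0.17 (Csnk2a1, a subunit of casein kinase 2, 72.6 and 81.4), with Ctnnbip1, which blocks the binding of β-catenin to TCF factors, at 0.07 (1004 and 1051). None passed 1.5-fold.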
